A study of Mus musculus with 6 samples.

Results

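The genes described here are 10 mouse genes of glucuronidation and related sugar conjugation: the glucuronosyltransferase genes Ugt2a3, Ugt2b1, Ugt2b5, Ugt2b34, Ugt2b35, Ugt2b36 and Ugt2b38, the related glycosyltransferase genes Ugt3a1 and Ugt3a2, and Ugdh. They were taken by name from 18194 genes with a probe set of their own on an Affymetrix mouse array, and all 10 had one. Total RNA came from whole livers of CYP2D6-humanized mice, C57BL/6 animals transgenic for the human drug-metabolising P450 gene CYP2D6, which every group carries. The 3 stages were pre-pregnancy, pregnancy on its day 21, and the postpartum period on its day 7. Each had 2 livers, described as biological replicates, and 1 array per liver. The mice's ages are not stated, and p-values measure only the spread between these livers.

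Glucuronidation joins glucuronic acid to steroids, bilirubin, bile acids and drugs in the endoplasmic reticulum, mostly in hepatocytes, and the water-soluble products leave in bile or urine. Ugdh oxidises UDP-glucose to UDP-glucuronic acid, the sugar donor of the reaction. Enzymes of the UGT1 and UGT2 families transfer that sugar, whereas the human UGT3 enzymes use other UDP-sugars. The Ugt2 genes lie side by side on mouse chromosome 5, and Ugt3a1 and Ugt3a2 are neighbours on chromosome 15.

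Promoter sequences were available for 9 of the 10 genes from RefSeq (build GRCm38.p6; 250 bases before to 50 after the annotated start). All 6 Ugt2b genes and Ugt3a1 held a palindrome of the letters GTTANNNNNTAAC. It was present in 109 of 32851 promoters of that length (0.332%). The palindrome reads the same on both strands, and it was searched after these promoters had been looked at, so the 7 matches are a description. The windows below run 5′ to 3′ on the strand of the gene. They show the motif, which these 7 genes have in common, in capitals with 14 bases on each side.
Ugt2b34 (chr5:86906984-86907024, minus strand): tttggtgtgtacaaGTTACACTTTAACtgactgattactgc
Ugt2b1 (chr5:86926566-86926606, minus strand): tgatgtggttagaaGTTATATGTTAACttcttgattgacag
Ugt2b35 (chr5:87000776-87000816, plus strand): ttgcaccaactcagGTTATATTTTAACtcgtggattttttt
Ugt2b36 (chr5:87092593-87092633, minus strand): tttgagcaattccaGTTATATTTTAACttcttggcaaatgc
Ugt2b5 (chr5:87140375-87140415, minus strand): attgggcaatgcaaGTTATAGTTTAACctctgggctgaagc
Ugt2b38 (chr5:87424241-87424281, minus strand): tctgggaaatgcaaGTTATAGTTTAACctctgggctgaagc
Ugt3a1 (chr15:9279685-9279725, plus strand): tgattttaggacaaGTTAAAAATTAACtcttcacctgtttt

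In the Ugt2b genes the motif began between positions -89 (Ugt2b1) and -61 (Ugt2b5) relative to the start, and in Ugt3a1 at -130. The Ugt2a3 window held no match to these letters. The promoters of Ugt2b5 and Ugt2b38 were identical at 84.2% of aligned positions, the highest of the Ugt2 pairs, and the other pairs lay between 45.3% and 63.9%. These 2 promoters are printed whole because the pregnancy differences of their genes were -2.13 (Ugt2b38) and -0.42 (Ugt2b5) on the log2 scale. These 2 differences were not tested against each other, and that of Ugt2b38 is imprecise.
Ugt2b38 (chr5:87424154-87424453, minus strand): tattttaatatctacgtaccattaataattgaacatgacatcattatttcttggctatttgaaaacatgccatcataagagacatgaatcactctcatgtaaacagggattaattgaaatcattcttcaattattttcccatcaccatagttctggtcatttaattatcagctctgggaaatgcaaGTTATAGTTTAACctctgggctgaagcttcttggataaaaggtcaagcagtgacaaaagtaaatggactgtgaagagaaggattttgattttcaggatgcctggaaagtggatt
Ugt2b5 (chr5:87140291-87140590, minus strand): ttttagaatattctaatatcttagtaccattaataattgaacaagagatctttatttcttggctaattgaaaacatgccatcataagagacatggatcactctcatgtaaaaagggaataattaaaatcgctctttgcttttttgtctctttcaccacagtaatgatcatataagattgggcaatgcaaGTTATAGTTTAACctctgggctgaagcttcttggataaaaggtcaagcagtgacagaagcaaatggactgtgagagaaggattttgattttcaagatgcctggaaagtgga

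The Ugdh promoter, shown because Ugdh moved most after birth, held no such palindrome. Its capitals mark 2 matches to TGACNNNGC, the core of the antioxidant response element, and 3 to the GC box GGGCGG, on either strand and with no overlap between them. These letters are common, being present in 12.4% and 35.7% of promoters.
Ugdh (chr5:65435793-65436092, minus strand): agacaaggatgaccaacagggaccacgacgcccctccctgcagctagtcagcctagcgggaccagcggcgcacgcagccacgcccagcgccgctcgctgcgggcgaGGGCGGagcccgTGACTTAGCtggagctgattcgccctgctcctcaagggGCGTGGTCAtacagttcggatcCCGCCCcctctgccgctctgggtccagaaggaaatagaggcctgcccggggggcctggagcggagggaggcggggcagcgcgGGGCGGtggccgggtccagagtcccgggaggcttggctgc

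Values are log2 expression per probe set from robust multi-array averaging (RMA), so a difference of 1 is a 2-fold change, and levels of different genes are not comparable. The Ugt2b genes are close relatives, and cross-hybridisation between their probe sets was not tested. Array medians lay between 5.09 and 5.15, and replicate arrays correlated across genes at 0.994 to 0.997. The number of arrays limits the precision. A gene was called where limma's adjusted p (Benjamini-Hochberg over all 18194 genes) was under 0.05. Albumin stood at 14.87 to 14.98 on all 6 arrays, near the highest value in the table (15.05), and the 8 hepatocyte markers had a summed linear level of 135900 to 136000 on day 21 of pregnancy and 131700 to 133500 postpartum, against 135000 to 139700 before pregnancy.

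Day 21 of pregnancy was set against pre-pregnancy to see how conjugation genes stand late in gestation. Ugdh, the supplier of the sugar donor, and 5 transferase genes were lower, by 1.34-fold to 4.38-fold, while Ugt2b35 and Ugt2b36 stayed within 0.13 of their pre-pregnancy means. Of the 10 genes 6 fell and 0 rose, where 8.25% of all genes fell and 5.46% rose, all at an adjusted p under 0.05. At an unadjusted limma p under 0.05, 7 of the 10 were lower and 0 higher. The share of all genes at that threshold was not counted, here or for the unadjusted counts below. The median difference of the 10 was -0.53, against 0.045 over all genes. In whole liver, fewer cells of a type and less RNA per cell cannot be told apart.

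Ugdh had 9.59 and 9.36 on day 21, against 10.19 and 10.24 before pregnancy. Both pregnant livers lay below both pre-pregnancy livers, and the difference of -0.74 ± 0.143 (SE, n = 2 each) was larger than the replicate gaps of 0.23 and 0.05 (1.67-fold lower, limma adjusted p = 0.0166).

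Among the Ugt2b genes, Ugt2b38 moved most. Ugt2b38, a gene known to be more abundant in male than in female mouse liver, had 5.35 and 4.40 on day 21, against 6.71 and 7.30 before pregnancy. The stages did not overlap, but the livers within each stage differed widely, by 0.95 and 0.59, and the pregnant values lay around the array medians and down towards the arrays' lower quartiles (3.91 to 4.0), so the fold is imprecise. Its difference was -2.13 ± 0.351 (SE, n = 2 each; limma adjusted p = 0.00989).

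Ugt2b1, whose rat counterpart conjugates bisphenol A, had 12.39 and 12.24 on day 21, against 13.00 and 13.14 before pregnancy, a fall of 1.69-fold (-0.755 ± 0.112 SE, adjusted p = 0.00711). Ugt2b34 stood at 12.50 and 12.52 on day 21, against 13.13 and 13.18 before pregnancy (-0.645 ± 0.109, adjusted p = 0.0107). Each stage of Ugt2b34 was tight, with replicate gaps of 0.02 and 0.05. Its other probe set gave a fall of 0.47 on the log2 scale (adjusted p = 0.0444 over all probe sets). Ugt2b5 had 12.92 and 12.79 on day 21, against 13.27 and 13.28 before pregnancy (-0.42 ± 0.101, adjusted p = 0.0332). All 3 genes had both pregnant livers below both pre-pregnancy livers.

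Both other Ugt2b genes were not called. Ugt2b36 had 13.58 and 13.60 on day 21, against 13.62 and 13.60 before pregnancy, and the 95% interval of its difference ran from -0.242 to 0.202. Ugt2b35 had 11.52 and 11.88 on day 21, against 11.59 and 11.55 before pregnancy, with an interval of -0.177 to 0.437. The pregnant livers of Ugt2b35 lay on either side of the pre-pregnancy ones. For both genes the interval leaves out -0.42, the difference of Ugt2b5. The interval of Ugt2b5 itself ran from -0.654 to -0.186 and overlapped that of Ugt2b36. The difference between these genes was not tested. The promoters of all 3 genes hold the palindrome shown above, and no link between it and expression was tested.

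Ugt2a3, whose human counterpart conjugates bile acids, had 11.98 and 11.86 on day 21, against 12.27 and 12.20 before pregnancy. The stages did not overlap, and the difference of -0.315 ± 0.104 was not called (adjusted p = 0.0841), but was with a trended and robust variance (adjusted p = 0.0335).

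In the Ugt3 pair, Ugt3a1, which in humans uses UDP-N-acetylglucosamine, had 10.26 and 9.74 on day 21, against 10.95 and 10.96 before pregnancy. Its fall of 1.94-fold (-0.955 ± 0.171 SE, adjusted p = 0.0127) came with a gap of 0.52 between the pregnant livers, and its other probe set fell by 1.105 on the log2 scale (adjusted p = 0.00388). Its neighbour Ugt3a2, which in humans uses UDP-glucose and UDP-xylose, had 12.45 and 12.41 on day 21, against 12.67 and 12.60 before pregnancy. The difference of Ugt3a2 was -0.205 (interval -0.488 to 0.078, adjusted p = 0.294).

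**Figure D1:**
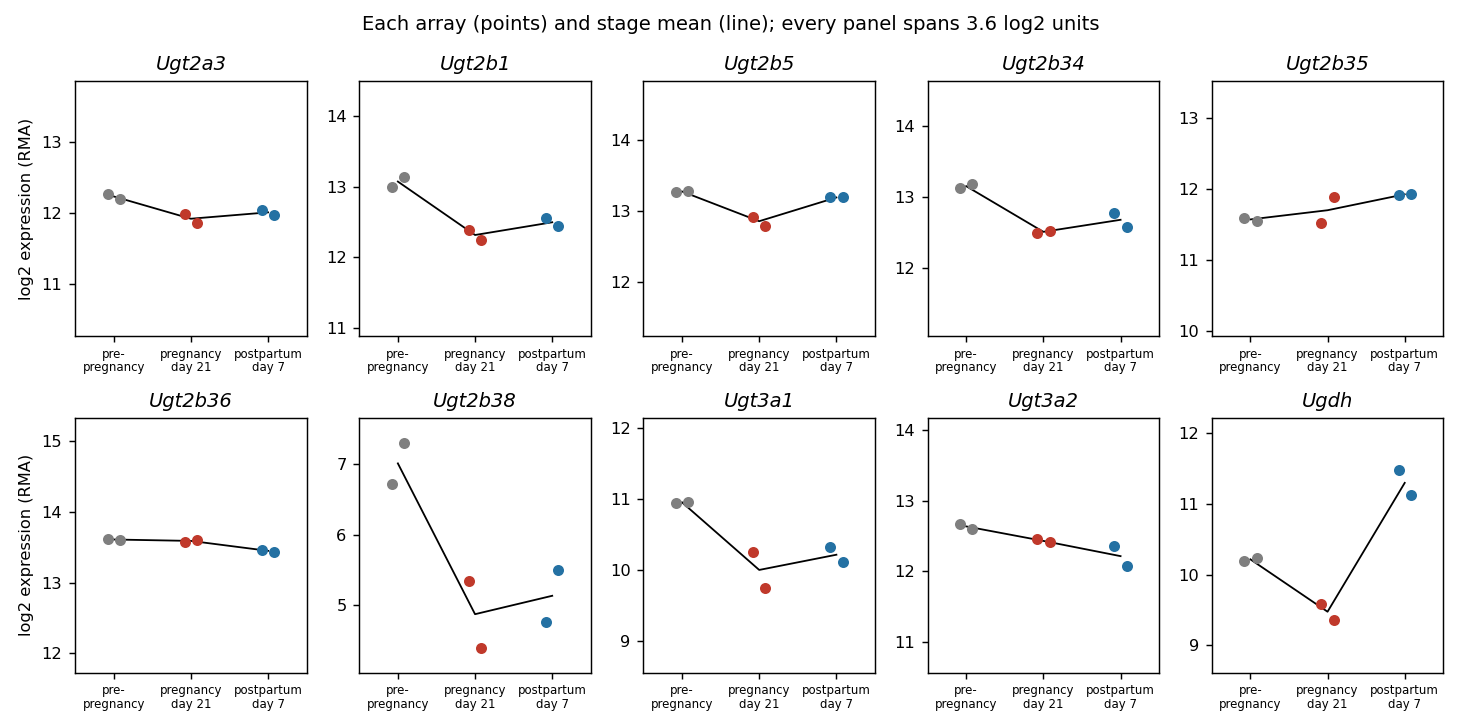
Log2 expression (RMA, y axis) of the 10 genes on each of 6 arrays (points) at pre-pregnancy, pregnancy day 21 and postpartum day 7 (x axis), with a line through the stage means; every panel spans the same number of log2 units around its own centre. Ugdh falls to 9.59 and 9.36 in pregnancy and stands at 11.47 and 11.12 postpartum, while Ugt2b36 stays between 13.44 and 13.62.

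Each array was left out in turn. In each comparison, here and below, 2 of these 6 fits drop an array of the stage not compared and keep all livers of the compared stages. Calls kept in those 2 fits do not show what removing a compared liver does. The pregnancy calls rest on having both pre-pregnancy livers in the fit. Without pre-pregnancy replicate 1, 0 of the 6 calls were kept (6 genes were lower at an unadjusted p under 0.05), and without pre-pregnancy replicate 2 likewise 0 (7 genes). In these fits the direction held for all 6 genes, with Ugt2b1 at adjusted p = 0.0516 and 0.0506 and Ugt2b38 at 0.0620 and 0.0730. Without pregnancy replicate 2, 4 calls were kept, and Ugdh (-0.625, adjusted p = 0.0747) and Ugt2b5 (-0.355, adjusted p = 0.119) were not called. Ugt2b5 was also not called when either postpartum array was left out (adjusted p = 0.0590 each).

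The postpartum livers (day 7) were then set against the pregnant ones. Ugdh was 3.53-fold higher postpartum, and none of the transferases was called. Of the 10 genes 1 rose and 0 fell (2 higher and 0 lower at an unadjusted p under 0.05), where 2.41% of all genes rose and 0.879% fell, and the median difference was 0.197, against -0.01 over all genes.

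Ugdh had 11.47 and 11.12 postpartum, against 9.59 and 9.36 on day 21 of pregnancy. The postpartum livers stood far above the pregnant ones, with a difference of 1.82 ± 0.143 (SE, n = 2 each; limma adjusted p = 0.00244). This call held with each of the 6 arrays left out, with differences of 1.645 to 1.995 and adjusted p of 0.00518 to 0.0190.

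Ugt2b5 had 13.19 and 13.19 postpartum, against 12.92 and 12.79 on day 21, a difference of 0.335 ± 0.101 that was not called (adjusted p = 0.121). With a trended and robust variance it was called (adjusted p = 0.0295). Ugt2b38 had 4.77 and 5.50 postpartum, against 5.35 and 4.40 on day 21, so its stages overlapped and the interval of the difference was wide (-0.554 to 1.074). Ugt3a1 had 10.32 and 10.11 postpartum, against 10.26 and 9.74 on day 21, which also overlapped (interval -0.182 to 0.612). Ugt2b1 had 12.55 and 12.44 postpartum, against 12.39 and 12.24 on day 21 (0.18 ± 0.112, adjusted p = 0.412), and Ugt2b34 differed by 0.17 (interval -0.083 to 0.423). The differences of the other 4 genes lay between -0.215 (Ugt3a2) and 0.225 (Ugt2b35).

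**Figure D2:**
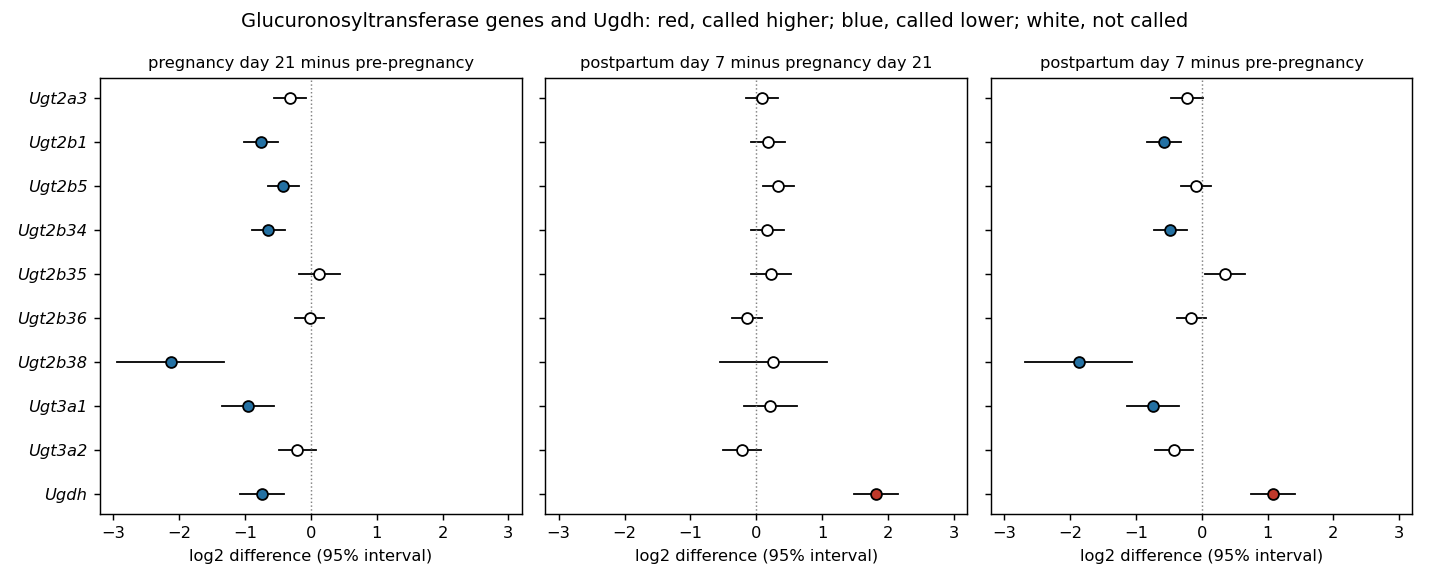
Log2 differences (x axis, points) with their 95% intervals from limma for the 10 genes (rows) in the 3 comparisons of stages (panels); red marks genes called higher, blue genes called lower and white genes not called. In the pregnancy comparison 6 of 10 points are blue, red marks only Ugdh, at 1.82 and 1.08 in the comparisons of postpartum day 7, and Ugt2b38 has the widest intervals.

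Day 7 postpartum was set against pre-pregnancy to ask which differences are present a week after birth. Ugdh was 2.11-fold higher, while Ugt2b34, Ugt2b1 and Ugt3a1 were lower, by 1.39-fold to 1.67-fold, and so was Ugt2b38, whose fold is imprecise because its postpartum values lay around the array medians. Of the 10 genes 1 rose and 4 fell, where 3.91% of all genes rose and 3.75% fell, and the median difference was -0.322, against 0.025 over all genes. The comparisons share arrays, so the differences of a gene in one are not independent of those in another.

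Ugdh had 11.47 and 11.12 postpartum, against 10.19 and 10.24 before pregnancy (1.08 ± 0.143 SE, n = 2 each; limma adjusted p = 0.00820). Ugt2b38 had 4.77 and 5.50 postpartum, against 6.71 and 7.30 before pregnancy (-1.87 ± 0.351, adjusted p = 0.0220), a call lost with a trended and robust variance (adjusted p = 0.0789). Ugt3a1 had 10.32 and 10.11 postpartum, against 10.95 and 10.96 before pregnancy (-0.74 ± 0.171, adjusted p = 0.0418). In all 3 genes the stages did not overlap, but this was also so for the genes not called, such as Ugt2b5 and Ugt2b36. The share of all genes without overlap was not counted in any comparison.

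Ugt2b1 had 12.55 and 12.44 postpartum, against 13.00 and 13.14 before pregnancy (-0.575 ± 0.112, adjusted p = 0.0248). Ugt2b34 had 12.78 and 12.58 postpartum, against 13.13 and 13.18 before pregnancy (-0.475 ± 0.109, adjusted p = 0.0409), and its other probe set was not called (-0.36, adjusted p = 0.131). Neither gene's stages overlapped.

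Ugt2b5, lower in pregnancy, had 13.19 and 13.19 postpartum, against 13.27 and 13.28 before pregnancy, and its difference was -0.085 (interval -0.319 to 0.149). Ugt3a2 had 12.36 and 12.07 postpartum, against 12.67 and 12.60 before pregnancy, which did not overlap; the difference of -0.42 ± 0.122 was not called (adjusted p = 0.0809), but was with a trended and robust variance (adjusted p = 0.0279). Ugt2b35 had 11.92 and 11.93 postpartum, against 11.59 and 11.55 before pregnancy, a positive difference of 0.355 ± 0.133 that was not called (adjusted p = 0.156). Ugt2a3 (-0.225, interval -0.466 to 0.016) and Ugt2b36 (-0.16, interval -0.382 to 0.062) were not called.

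These calls also rest on having both pre-pregnancy livers in the fit, and all but that of Ugdh on having both postpartum livers. Without either pre-pregnancy array, 0 of the 5 calls were kept (5 and 6 genes passed at an unadjusted p under 0.05 without replicates 1 and 2). Without either postpartum array, 1 was kept, that of Ugdh, whose adjusted p without the pre-pregnancy arrays was 0.0986 and 0.0550. The differences of the 5 genes kept their sign in each of these fits, from -1.505 to -2.235 for Ugt2b38 and from 0.905 to 1.255 for Ugdh.

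**Figure D3:**
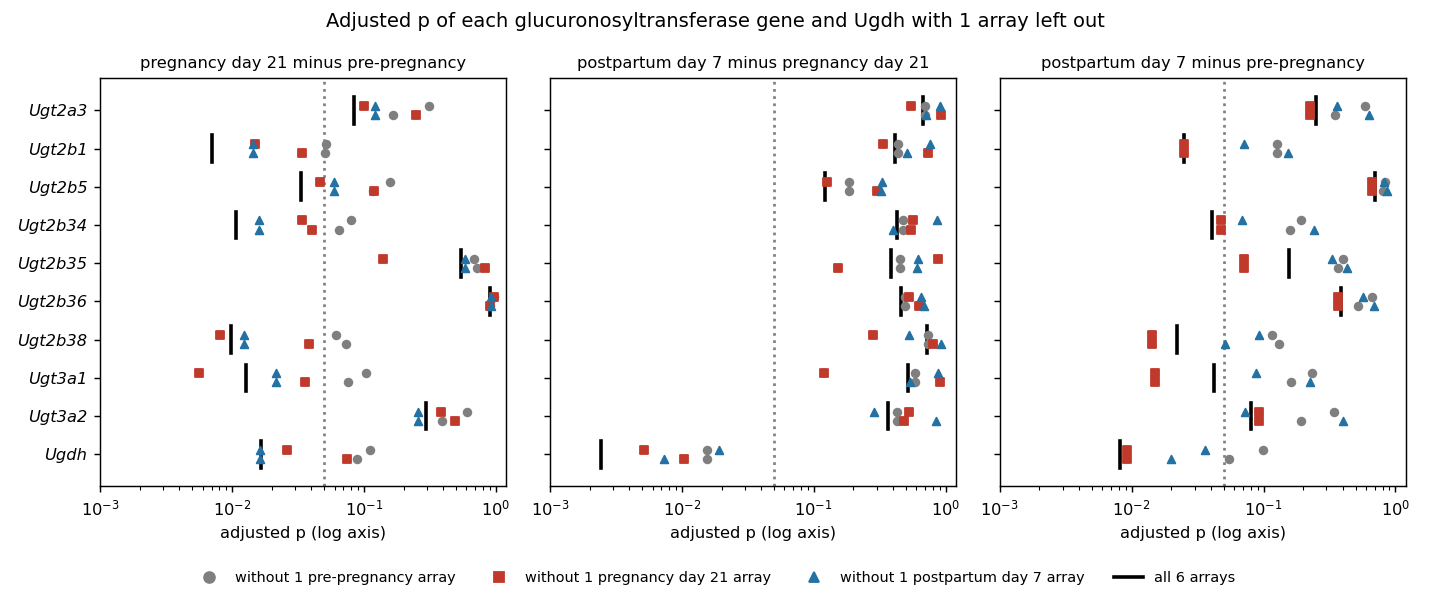
Adjusted p from limma (x axis, log scale; dotted line at 0.05) for the 10 genes (rows) in the 3 comparisons (panels), with all 6 arrays (black bars) and with 1 array left out (points, by the stage of that array; upper points replicate 1, lower points replicate 2). Leaving out a pre-pregnancy array moves every call of the pregnancy comparison past the line, while Ugdh stays below it in the comparison of postpartum day 7 with pregnancy.

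Of the other glucuronosyltransferases, Ugt2b37, another gene of the chromosome 5 cluster, and Ugt8a, which makes galactosylceramide, had probe sets of their own, 2 of 13 genes listed, and 0 were called in any comparison (0 at an unadjusted p under 0.05). Ugt2b37 had 11.52 and 10.43 on day 21 of pregnancy, against 10.71 and 11.39 before it. Its livers differed by 1.09 and 0.68 within a stage, and the difference of -0.075 ± 0.347 says little about its level.

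Other genes of the pathway were read from a list of 17 for UDP-glucuronate supply, transport and use, of which 16 were measured. In pregnancy 1 rose and 1 fell, where 5.46% of all genes rose and 8.25% fell, so both counts are near those shares. Gusb, the lysosomal beta-glucuronidase that removes glucuronic acid again, had 10.15 and 10.28 on day 21, against 8.76 and 8.72 before pregnancy. It rose 2.78-fold (1.475 ± 0.145 SE, adjusted p = 0.00186), a call kept with each of the 6 arrays left out. Cryl1, an enzyme that breaks down glucuronate by way of gulonate, fell to 7.56 and 7.59, against 8.22 and 8.05 before pregnancy (-0.56 ± 0.133, adjusted p = 0.0315, kept in 2 of 6 fits with an array left out), and its difference was -0.306 and not called with the mean over its probe sets.

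The steps on either side of Ugdh were not called in any comparison. Ugp2, which makes the UDP-glucose that Ugdh oxidises, differed by 0.27 ± 0.119 in pregnancy (adjusted p = 0.170) and by 0.325 ± 0.119 between postpartum day 7 and pre-pregnancy (adjusted p = 0.150). Slc35d1, a carrier of UDP-glucuronic acid into the endoplasmic reticulum, had 10.77 and 10.87 on day 21, against 10.79 and 10.96 before pregnancy (interval -0.305 to 0.195). Postpartum, against day 21, 2.41% of all genes rose and 0.879% fell. Of the 16, 2 rose and 0 fell (3 and 1 at an unadjusted p under 0.05). The 2 were Cryl1 (0.885 ± 0.133, adjusted p = 0.0173) and the nucleotide sugar carrier gene Slc35d2 (0.475 ± 0.1005, adjusted p = 0.0491). Cryl1 kept its call in 1 and Slc35d2 in 0 of 6 fits with an array left out (adjusted p of 0.0918 to 0.206 for Slc35d2). Between postpartum day 7 and pre-pregnancy 3.91% of all genes were higher and 3.75% lower. Gusb was 2.09-fold higher (1.065 ± 0.145, adjusted p = 0.00900). No other gene of the 16 was called in either direction (5 higher and 1 lower at an unadjusted p under 0.05). Gusb kept that call in 4 of 6 fits with an array left out, at 0.86 to 1.27, and the mean over its probe sets gave a smaller difference of 0.458, which was called. Against day 21, the postpartum difference of Gusb was -0.41 (adjusted p = 0.167), and with the mean over its probe sets it was -0.67 and called.

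Sulfation is the other major conjugation of steroids and phenols. Of 15 measured sulfotransferase and sulfate donor genes 4 fell and 0 rose in pregnancy (6 and 1 at an unadjusted p under 0.05). Of all genes 8.25% fell and 5.46% rose. Papss1, a synthase of the sulfate donor, had 8.27 and 8.38 on day 21, against 9.48 and 9.65 before pregnancy, 2.36-fold lower (adjusted p = 0.00349). Sult1d1, a sulfotransferase of catechols, fell 2.28-fold, Papss2, the other donor synthase, by 0.51 and Bpnt1, which clears the spent donor, by 0.515 on the log2 scale. With each of 6 arrays left out, Papss1 kept its call in 6 fits, Sult1d1 in 3, Bpnt1 in 2 and Papss2 in 1 (-0.695 to -0.325 for Papss2, the smaller fall without pregnancy replicate 1). Against day 21, 0 of the 15 were called postpartum (4 higher and 0 lower at an unadjusted p under 0.05). Of all genes 2.41% rose and 0.879% fell there, while 3.75% were lower and 3.91% higher postpartum than before pregnancy. Against pre-pregnancy, Sult1d1 (-1.23 ± 0.237), Papss1 (-0.695 ± 0.152) and Sult2a8, a bile acid sulfotransferase (-0.62 ± 0.131), were lower postpartum and Sult2a2 was higher (0.445 ± 0.107). Papss1 and Sult1d1 each kept that call in 3 of 6 fits with an array left out and Sult2a8 and Sult2a2 in 2.

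Of 7 carriers that move conjugates and organic anions, 3 fell and 0 rose in pregnancy (5 and 0 at an unadjusted p under 0.05). Of all genes 8.25% fell and 5.46% rose. Abcc3, which exports glucuronides to the blood, had 8.34 and 7.62 on day 21, against 10.26 and 10.43 before pregnancy (-2.365 ± 0.210, adjusted p = 0.00128). The related exporter Abcc4 fell by 0.68 (SE 0.134) and the uptake carrier Slco1b2 by 0.51 (SE 0.110) on the log2 scale, and each kept its call in 3 of 6 fits with an array left out. Postpartum, against day 21, 2 rose and 0 fell (3 and 0 at an unadjusted p under 0.05). Of all genes 2.41% rose and 0.879% fell. Abcc3 had 10.12 and 10.13, against 8.34 and 7.62 (2.145 ± 0.210), and Abcc4 had 7.52 and 7.34, against 5.90 and 5.94 (1.51 ± 0.134). Both these calls and the fall of Abcc3 held with each of the 6 arrays left out. Between postpartum day 7 and pre-pregnancy Abcc4 was higher (0.83 ± 0.134, adjusted p = 0.0139) and the uptake carrier Slco1a1 lower (-0.505 ± 0.111, adjusted p = 0.0359). Each kept its call in 2 of 6 such fits. Of all genes 3.91% were higher and 3.75% lower in that comparison.

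**Figure D4:**
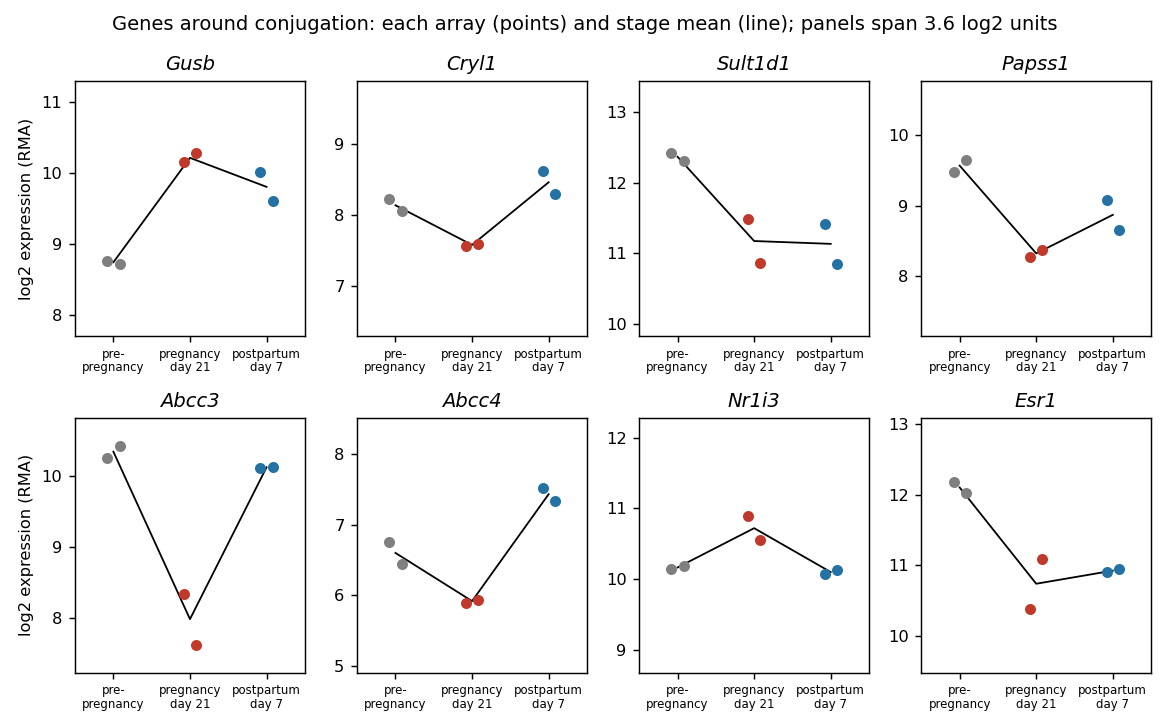
Log2 expression (RMA, y axis) of 8 other genes of conjugation, transport and regulation on each of 6 arrays (points) at the 3 stages (x axis), with a line through the stage means; every panel spans the same number of log2 units. Gusb stands at 10.15 and 10.28 in pregnancy, against 8.76 and 8.72 before it, and Abcc3 and Abcc4 have their lowest values in pregnancy.

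Of 15 measured receptors and factors known to act on Ugt genes, 5 fell and 1 rose in pregnancy (6 and 4 at an unadjusted limma p under 0.05). Over all genes 8.25% fell and 5.46% rose. Hnf4a, a main hepatocyte factor, differed by 0.105 ± 0.105 (adjusted p = 0.534), and Nr1i2, the pregnane receptor, by 0.015 ± 0.104 (adjusted p = 0.937). Nr1i3, the constitutive androstane receptor, had 10.89 and 10.55 on day 21, against 10.14 and 10.19 before pregnancy (0.555 ± 0.130, adjusted p = 0.0307, kept in 1 of 6 fits with an array left out, at 0.385 to 0.725). The oestrogen receptor gene Esr1 had 10.39 and 11.09 on day 21, against 12.18 and 12.02 before pregnancy (-1.36 ± 0.206, adjusted p = 0.00749), and the pioneer factor genes Foxa1 (-0.93 ± 0.215) and Foxa2 (-0.77 ± 0.135) also fell, as did Arnt (-0.475), the partner of the aryl hydrocarbon receptor, and the bile acid receptor gene Nr1h4 (-0.45). Esr1 and Foxa2 kept their calls in 5 of 6 fits with an array left out and Foxa1 in 3.

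Postpartum, against day 21, 1 of these 15 factors fell, Nr1i3 (-0.62 ± 0.130, adjusted p = 0.0488, kept in 1 of 6 fits), and 0 rose (2 and 2 at an unadjusted p under 0.05). Against pre-pregnancy, 4 were lower postpartum, namely Esr1 (-1.175 ± 0.206), the fatty acid receptor gene Ppara (-0.86 ± 0.119), Arnt (-0.58 ± 0.0996) and Nr1h4 (-0.46), and Cebpa, a hepatocyte differentiation factor gene, was higher (0.54 ± 0.109). With an array left out, Ppara kept its call in 4 of 6 fits and Esr1, Arnt and Cebpa in 2. Of all genes 0.879% fell and 2.41% rose postpartum against day 21, and 3.75% were lower and 3.91% higher against pre-pregnancy.

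Since Ugt2b38 is male-biased, other sex-biased liver genes were read beside it. Of 17 measured male-biased genes 6 fell and 1 rose in pregnancy (median -0.315). Between postpartum day 7 and pre-pregnancy 5 were lower and 1 higher (median -0.375). Over all genes 8.25% fell and 5.46% rose in pregnancy (median 0.045). Between postpartum day 7 and pre-pregnancy 3.75% of all genes were lower and 3.91% higher (median 0.025). Postpartum, against day 21, 2.41% of all genes rose and 0.879% fell. Cyp2d9 had 6.80 and 6.34 on day 21, against 8.78 and 8.68 before pregnancy (-2.16 ± 0.169), and 6.16 and 6.44 postpartum. Hsd3b5 (-2.66 ± 0.534), C8b and Nudt7 (each -1.91) also fell in pregnancy, and Hsd3b5 kept its call in 2 of 6 fits with an array left out. Between postpartum day 7 and pre-pregnancy the lower genes were Cyp2d9 (-2.43), C8b (-1.67), Nudt7 (-0.875), Slco1a1 (-0.505) and Cyp4a12a. Cyp4a12a had 3.85 and 3.73 postpartum, against 4.77 and 4.47 before pregnancy, all below the array medians, so no size is given for its difference. Gstp1, a glutathione transferase gene, was the higher one in both comparisons with pre-pregnancy (0.88 in pregnancy and 0.82 postpartum). Nudt7, a coenzyme A hydrolase gene, was the 1 gene of this list that was higher postpartum than on day 21 (1.035 ± 0.136), and 0 were lower (3 and 0 at an unadjusted p under 0.05). Of 15 measured female-biased genes 3 rose and 4 fell in pregnancy, 1 rose and 1 fell postpartum against day 21, and 4 were higher and 3 lower between postpartum day 7 and pre-pregnancy. Among them Cyp17a1 (5.105 ± 0.287) and Cyp3a16 (2.23 ± 0.123) rose and Cyp2b13 (-1.73 ± 0.306), Ntrk2 (-1.47 ± 0.169), Prom1 (-0.88) and Fmo2 (-0.865) fell in pregnancy, with Cyp3a44 as the remaining gene that rose (0.98). With the mean over its probe sets the fall of Ntrk2 was smaller, at -0.345. Postpartum, against day 21, Prom1 rose (2.535 ± 0.235) and Cyp3a16 fell (-0.585, kept in 0 of 6 fits with an array left out). Between postpartum day 7 and pre-pregnancy Cyp17a1 (4.895), Prom1 (1.655), Cyp3a16 (1.645) and Cyp3a44 (1.22) were higher, and Cyp2b13 (-2.835), Ntrk2 (-0.965) and Fmo2 (-0.93) were lower.

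Markers of other liver cells were read beside these genes, where 8.25% of all genes fell and 5.46% rose in pregnancy. Postpartum, 0.879% fell and 2.41% rose against day 21, and 3.75% were lower and 3.91% higher against pre-pregnancy. At an unadjusted limma p under 0.05, 2 Kupffer cell markers were lower and 1 higher in pregnancy. Of the stellate cell markers 1 was lower and 1 higher at that threshold. Of 8 endothelial markers 3 fell and 0 rose (7 and 0 at an unadjusted p under 0.05), namely Kdr, Emcn and Tek, each kept in 2 or 3 of 6 fits with an array left out, and the 8 markers' summed linear level was 4026 to 4064 on day 21 and 3765 to 4014 postpartum, against 4750 to 6030 before pregnancy. Of 8 Kupffer cell markers 1 fell, Timd4 (-0.905), with summed levels of 5496 to 6790 on day 21 and 7101 to 7633 postpartum, against 6930 to 7275 before pregnancy. Of 8 stellate cell markers 1 fell, Lrat (-1.47, kept in 4 of 6 fits, -0.905 without pregnancy replicate 2, and not called with a trended and robust variance), with summed levels of 6755 to 6803 on day 21 and 5916 to 6799 postpartum, against 7591 to 7658 before pregnancy. Of 5 measured bile duct markers 0 were called (0 at an unadjusted p under 0.05), at 139.7 to 149.6 on day 21 and 159 to 290.2 postpartum, against 136.9 to 153.9 before pregnancy. Of 8 hepatocyte markers 1, the asialoglycoprotein receptor gene Asgr1, rose by 0.395 (kept in 1 of 6 fits) and 0 fell. The 6 kidney and gut markers gave 0 calls in pregnancy (1 higher at an unadjusted p under 0.05). Their summed levels were 2776 to 2980 on day 21 and 1320 to 1839 postpartum, against 2345 to 2696 before pregnancy. A linear sum is dominated by the brightest genes. The mean log2 levels of these 6 moved little, at 5.69 to 5.77, 5.51 to 5.58 and 5.58 to 5.62 at these stages in the same order. Postpartum, Fabp2 of this list was lower than on day 21 (-0.97) and than before pregnancy (-0.78), each kept in 1 of 6 fits with an array left out, and the difference from pre-pregnancy was -0.485 without postpartum replicate 1. Between postpartum day 7 and pre-pregnancy limma called 0 of the endothelial markers (6 lower at an unadjusted p under 0.05), and of the Kupffer cell markers Timd4 was lower (-0.61) and Marco higher (1.03). The part of other cell types in the differences of the glucuronosyltransferase genes and Ugdh was not tested.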

How the data were processed

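Per the labels' protocols, Trizol was used for extraction, and each array received biotin-labelled product of 250 ng liver RNA. The deposited values are 45101 probe sets on 6 arrays, which the authors made with RMA and Affymetrix Power Tools, per the submitters' processing notes; their versions are not given in these sources. The log2 scale of the deposited values was inferred from their range (2.69 to 15.05). RMA commonly includes quantile normalization, under which a shift of most genes at once cannot be seen.

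Gene names came from GEO's platform table: 34958 had 1 symbol, 932 several (not named) and 9211 none here; 0 symbols changed in the update. The probe set with the highest mean was used per gene (18194 genes). limma 3.58.1 in R 4.3.3 was fitted with a mean per stage over all 6 arrays (3 residual and 4.8 prior degrees of freedom), with two-sided tests; SE is limma's moderated error. With 2 livers against 2, an exact permutation test of 1 gene cannot go below p = 0.333. The fit was tested on simulated data.

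Named genes were the 10 genes, in each list all called genes if 4 or fewer and otherwise the 4 with the largest differences, and Gusb, Ugp2, Slc35d1, Nr1i2, Nr1i3 and Hnf4a. The members and lists were chosen with earlier results of these data known; albumin, Ugt2b37, Ugt8a and the called genes beyond these 4 were named after their values were seen. Replicate numbers did not pair the arrays (deviation correlations -0.027 to 0.111). Alternatives were the replicate block, a filter on dim genes (40th percentile, 5.52), repeated quantile normalization, median centring, the mean over a gene's probe sets, each probe set by itself, a trended and robust variance, only the stages compared, and each array left out.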

Additional observations from a re-analysis of the deposited data

How the results depend on the processing

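Over the alternatives other than leaving out an array, the counts of called genes among the 10 stayed within 1.5 times, except that a trended and robust variance called 2 rather than 1 postpartum against pregnancy. The replicate block gave 6 calls for pregnancy and 1 and 5 for the postpartum livers against the pregnant and the pre-pregnancy ones; the labels' numbers did not pair the arrays. With an array left out, the counts ran from 0 to 6, from 1 to 1 and from 0 to 5. Over all genes, calls in pregnancy against pre-pregnancy numbered 2494 with 6 arrays, and 323 and 876 without pre-pregnancy replicates 1 and 2; they numbered 1227 without pregnancy replicate 2. For postpartum against pregnancy they numbered 599, with 115 to 528 after leaving out an array and 203 with only the stages compared, and for postpartum against pre-pregnancy 1393, with 73 to 1582. A group of 1 array is assumed to vary like the others. For the 10 genes, 34 of 180 values with an array left out lost their call and 0 gained one; of 246 under other alternatives, 4 lost and 3 gained one. The 180 and 246 values include those of genes not called with all 6 arrays, which had no call to lose. Directions turned in genes that were not called. In pregnancy against pre-pregnancy, these were Ugt2b35 (-0.05 without pregnancy replicate 2, and up to 0.31 with other arrays left out), Ugt2b36 (0.015 with median centring), Slc35d1 (0.007 with repeated quantile normalization, 0.03 without pre-pregnancy replicate 2, down to -0.14), Nr1i2 (-0.01 and -0.055 without replicate 1 of pre-pregnancy and of pregnancy, up to 0.085) and Hnf4a (-0.017 with the mean of all probe sets). In postpartum against pregnancy, these were Ugt2b38 (-0.215 and -0.105 without replicate 2 of pregnancy and of postpartum, up to 0.735), Ugt3a1 (-0.045 without pregnancy replicate 2, up to 0.475), Ugp2 (-0.005 and -0.01 with an array left out, up to 0.12), Slc35d1 (0.303 with the mean of all probe sets, 0.045 and 0 with an array left out) and Hnf4a (0.01 and 0.005 with an array left out, down to -0.08). In postpartum against pre-pregnancy, these were Slc35d1 (0.112 with the mean of all probe sets, 0.025 without pre-pregnancy replicate 2, down to -0.145) and Hnf4a (-0.204 with the mean of all probe sets). The causes were not tested.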

Other observations

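The annotation gave 3 further probe sets to 8 Ugt1a symbols together, so none of them names a single gene. These enzymes include the one that conjugates bilirubin. Tested as probe sets by themselves, they differed by -0.205 to -0.005 in pregnancy against pre-pregnancy and by -0.21 to -0.045 postpartum against pre-pregnancy, and none was called (lowest adjusted p = 0.283). Their 6 arrays lay between 12.79 and 13.76. A probe set given to 2 other symbols of the chromosome 5 cluster, Ugt2a1 and Ugt2a2 together, had 4.63 and 4.35 on day 21, against 4.58 and 4.34 before pregnancy.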
